A study of Mus musculus with 57 samples.

Results

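Dcn, Lum, Fmod, Col1a1, Col1a2, Col3a1, Igf2, Slc6a13, Aldh1a2 and Islr, genes that mark the fibroblasts of the meninges and the collagen they lay down, were followed in the prefrontal cortex of young mice. They were taken by gene symbol from a table of 18088 listed genes, and all 10 were in it and passed the filter on low values. RNA came from C57BL/6J mice on postnatal day 25. HT mice carried 1 copy of the Shank3 delta C allele, an altered form of a gene for a scaffold protein of excitatory synapses, and WT mice carried none. The pups had received lithium, fluoxetine or vehicle in their mothers' milk for 3 weeks, from day 3 to day 24. Both sexes were sampled in each of the 6 combinations of genotype and drug, which made 12 groups and 56 libraries: 9 groups had 5 libraries, HT lithium males and WT lithium females had 4 each, and HT vehicle males had 3. Litters were not named, so pups of 1 mother could not be grouped, and p-values measure only the spread between these libraries.

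The meninges are the membranes around the brain, and their inner layer, the pia, lies directly on the cortex, so that a dissected cortex can carry some of it. Meningeal fibroblasts secrete fibrillar collagen and small leucine-rich proteoglycans that bind to collagen fibrils. In the developing brain they are also a source of retinoic acid and of insulin-like growth factor 2, and they carry transporters that move GABA, taurine and organic ions between cerebrospinal fluid and tissue. Col1a1 and Col1a2 encode the chains of type I collagen and Col3a1 the chain of type III collagen. Dcn (decorin), Lum (lumican) and Fmod (fibromodulin) are small leucine-rich proteoglycans. Igf2 encodes insulin-like growth factor 2, Slc6a13 a GABA and taurine transporter, Aldh1a2 an enzyme that makes retinoic acid from retinaldehyde, and Islr a leucine-rich repeat protein of mesenchymal cells.

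In GRCm38 coordinates, Dcn (ENSMUSG00000019929) lay at chr10:97479609-97518143 and Lum (ENSMUSG00000036446) at chr10:97565128-97572703, both on the plus strand and 46984 bases apart. Col1a1 (ENSMUSG00000001506) lay at chr11:94936224-94953042, Col1a2 (ENSMUSG00000029661) at chr6:4504814-4541544 and Col3a1 (ENSMUSG00000026043) at chr1:45311538-45349706. Fmod (ENSMUSG00000041559) lay at chr1:134037254-134048277, Slc6a13 (ENSMUSG00000030108) at chr6:121300227-121337733 and Aldh1a2 (ENSMUSG00000013584) at chr9:71215789-71296243. Those genes were on the plus strand. Igf2 (ENSMUSG00000048583) at chr7:142650766-142666816 and Islr (ENSMUSG00000037206) at chr9:58156268-58204306 were on the minus strand. Islr overlapped the listed genes Islr2, on its own strand, and 1600029O15Rik, on the other, and Igf2 overlapped Igf2os on the other strand. The libraries were stranded, but the sources used here do not give whether the counting used strand, and strand could not part Islr from Islr2. The counts of these overlapping genes are therefore uncertain.

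The 100 bases before the transcription starts of these genes were searched for short promoter motifs, as a description of their sequence. The RefSeq promoter table of GRCm38.p6 held 12 starts for 7 of the 10 genes, 4 of them of Igf2 and 3 of Slc6a13. It held no start for Dcn, Lum or Col1a1. The 5 windows below carry a motif or belong to a fibrillar collagen, and capitals mark CCAAT or GGGCGG.
Aldh1a2, chr9:71215689-71215788, plus strand: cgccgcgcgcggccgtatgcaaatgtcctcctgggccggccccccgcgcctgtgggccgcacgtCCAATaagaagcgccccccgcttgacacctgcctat
Igf2, chr7:142657497-142657596, minus strand: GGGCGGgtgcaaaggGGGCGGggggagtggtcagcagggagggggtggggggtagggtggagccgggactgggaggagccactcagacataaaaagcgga
Slc6a13, chr6:121300188-121300287, plus strand: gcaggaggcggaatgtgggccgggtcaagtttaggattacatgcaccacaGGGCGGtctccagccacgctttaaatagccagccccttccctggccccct
Col1a2, chr6:4505518-4505617, plus strand: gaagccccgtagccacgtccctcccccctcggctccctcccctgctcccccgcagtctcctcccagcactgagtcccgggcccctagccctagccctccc
Col3a1, chr1:45311438-45311537, plus strand: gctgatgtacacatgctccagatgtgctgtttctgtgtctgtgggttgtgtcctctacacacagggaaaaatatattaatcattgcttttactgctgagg
CCAAT, read on both strands as CCAAT or ATTGG, was in 1 of the 12 windows, the Aldh1a2 window shown, against 18.9% of 32851 windows of the same length over all genes. GGGCGG or CCGCCC was in 3 of the 12, against 24.7% of all windows: the 2 shown for Igf2 and Slc6a13 and a second Igf2 window that holds CCGCCC. The TATA motif, searched as TATAAA or TTTATA, was in 0 of the 12, against 5.56% of all windows. GC content ran from 43% in the Col3a1 window, with 0 CG pairs, to 74% in the Col1a2 window, with 5. None of the 3 motifs was in the windows of all 7 genes, and these are matches of letters, not measured binding sites.

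Each library gave 22984556 to 35969254 reads over the listed genes. Values are given as normalised counts, which are reads divided by the library's size factor, and fold changes as differences of log2(value + 1). The cortical neuron markers Slc17a7, Tbr1, Cux2, Rorb, Fezf2 and Neurod6 were present in every library, with Slc17a7 at 28646 or more. Shank3 itself lay between 5748 and 11196 in 27 HT libraries and between 5170.1 and 9844 in 29 WT libraries, so its gene count did not separate the genotypes. Markers of neighbouring tissue were also present. Olfactory bulb markers summed to between 239 and 14785 per library. HT vehicle female 1 stood apart by choroid plexus markers 5.63 above the median on the log2 scale, and HT lithium female 5 by mitochondrially encoded genes, at -1.57 from it. Border macrophage markers (Mrc1, Lyve1, Cd163, Pf4, F13a1 and Ms4a7) summed to between 191 and 714. In bulk tissue, fewer cells of a type and less RNA per cell cannot be told apart.

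All 10 genes were detected in every library, from at least 23 reads for Lum to 5406 for Igf2. Per kilobase of the longest coding transcript, Igf2 was the highest at 637 ± 122 normalised counts (SD, n = 56). Islr followed at 331 ± 122, Dcn at 245 ± 60.1, Fmod at 234 ± 42.5 and Col1a2 at 212 ± 39.8 normalised counts per kilobase. Slc6a13 was at 143 ± 31.0, Aldh1a2 at 115 ± 25.5, Col1a1 at 101 ± 29.8, Col3a1 at 77.6 ± 18.7 and Lum at 30.7 ± 8.49 normalised counts per kilobase. The top and the bottom of this order were clear of their neighbours: Igf2 was above Islr in 54 of 56 libraries, and Col3a1 above Lum in all 56. Dcn and Fmod could not be ordered, since Dcn was the higher in 33 of 56 libraries. Between the other neighbours the mean ± SD ranges touched, though the higher gene led in 41 to 55 libraries. The 2 chains of type I collagen kept a fixed order, with Col1a1 per kilobase at 0.359 to 0.688 of Col1a2, a median of 0.464, and below it in 56 of 56 libraries.

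**Figure D1:**
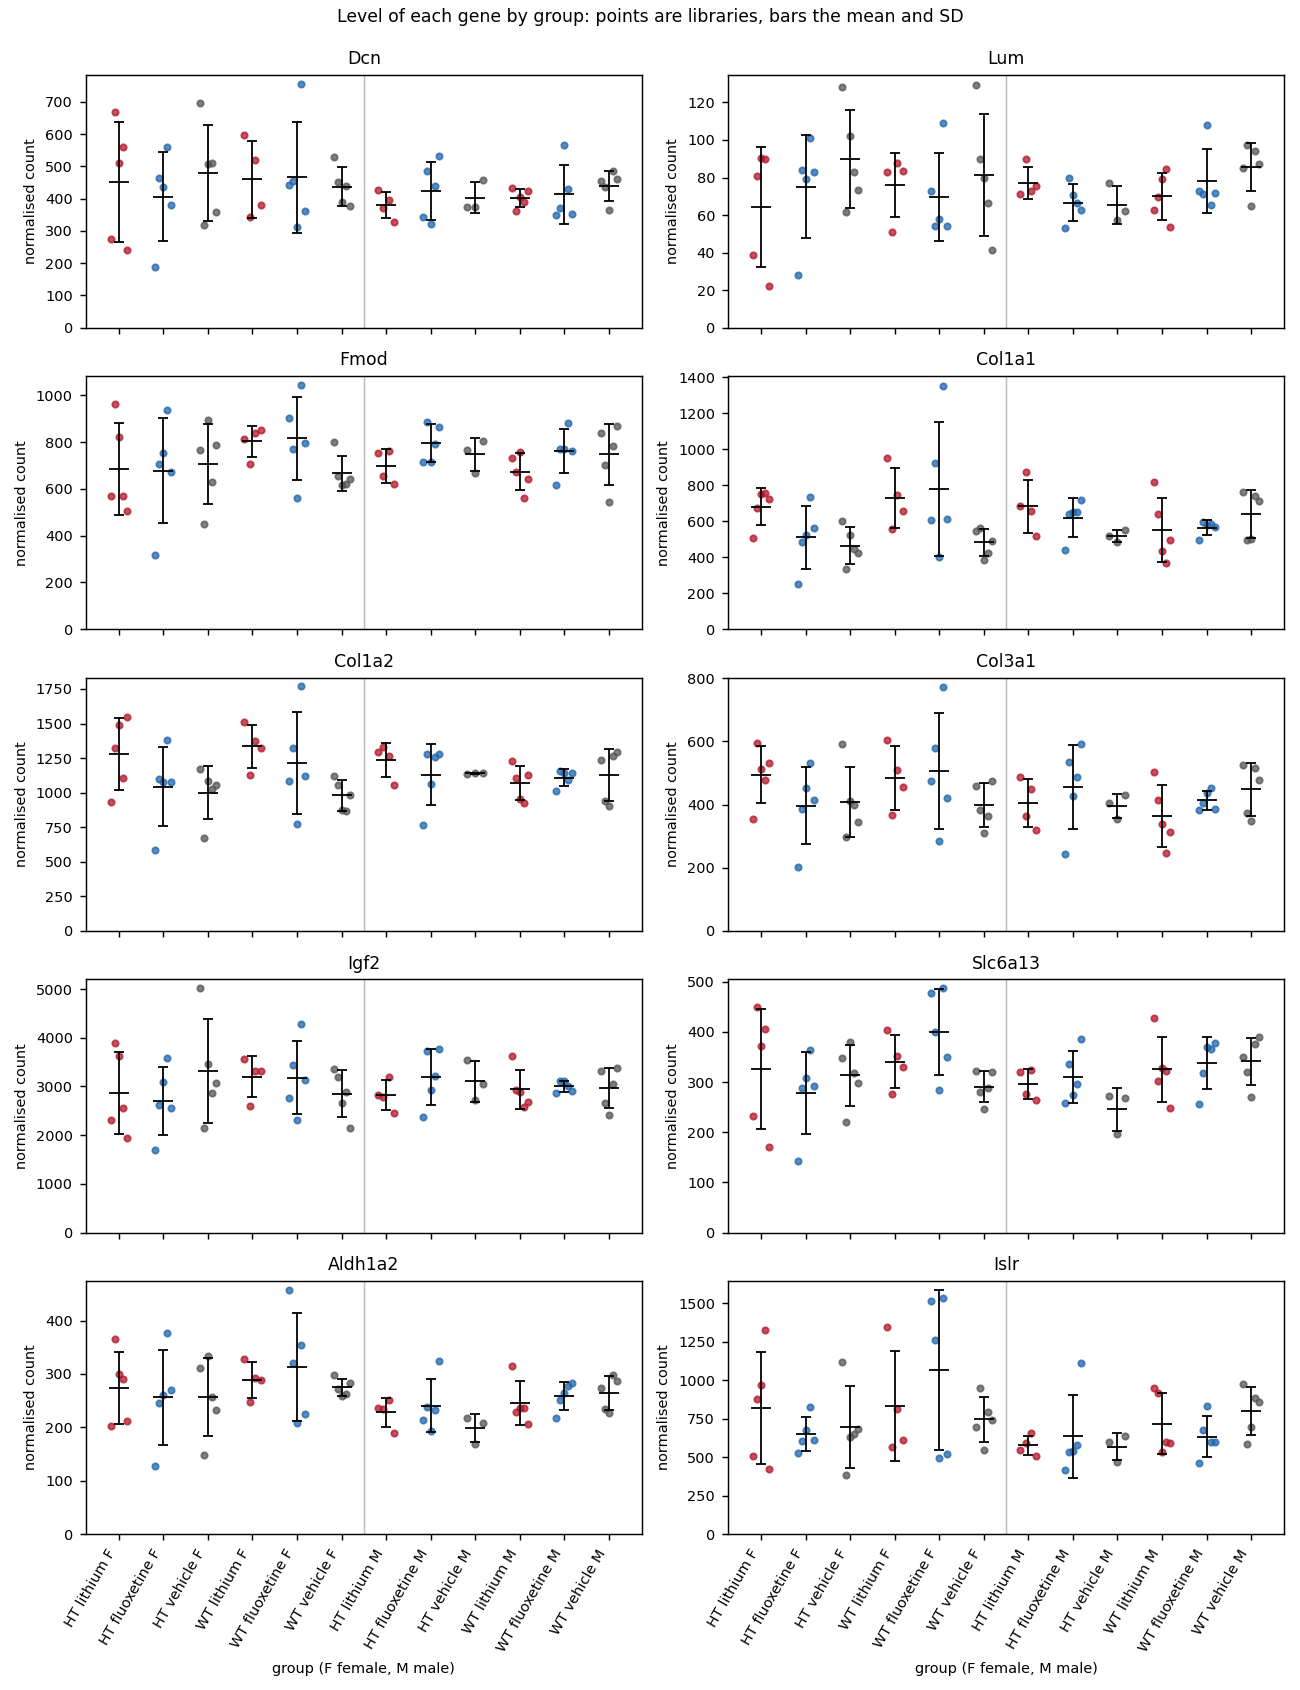
Normalised counts of each gene in the 12 groups, with females left of the grey line and males right of it. Points are libraries (lithium red, fluoxetine blue, vehicle grey) and bars the mean and SD over 3 to 5 libraries. The groups overlap for nearly all genes, and the female groups hold the widest spreads, such as Col1a1 at 399 to 1351 in WT fluoxetine females.

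Within groups the levels varied more between animals than those of most genes of like abundance. The SD within groups ran from 0.28 for Col1a2 to 0.48 for Islr on the log2 scale, against a median of 0.19 over all genes tested. Set against genes within 0.5 log2 units of the same level, the 10 SDs lay at percentiles 90.4 (Lum) to 99.1 (Islr). The 12 groups took up 6.04% of the variance of Dcn and 31.5% of that of Col1a1, the ends of the range, against a median of 27.9% over all genes tested. Between the highest and the lowest library the fold was 2.96 for Igf2, the smallest, and 5.88 for Lum, the largest. The same libraries held the extremes: HT fluoxetine female 1 was the lowest for 8 of the 10 genes and WT fluoxetine female 4 the highest for 7.

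Summed over the 10 genes, HT fluoxetine female 1 had 4075 normalised counts and WT fluoxetine female 4 had 12463, around a median of 7646. All 10 genes were above their own medians in 11 libraries of 7 groups and below them in 6 libraries of 6 groups. The libraries with all 10 genes low were spread over both genotypes, all 3 treatments and both sexes, and so were those with all 10 high. In HT fluoxetine female 1 the deviations from the medians ran from -1.38 for Lum to -0.26 for Islr on the log2 scale. In WT fluoxetine female 4 they ran from 0.47 for Fmod to 1.27 for Islr.

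**Figure D2:**
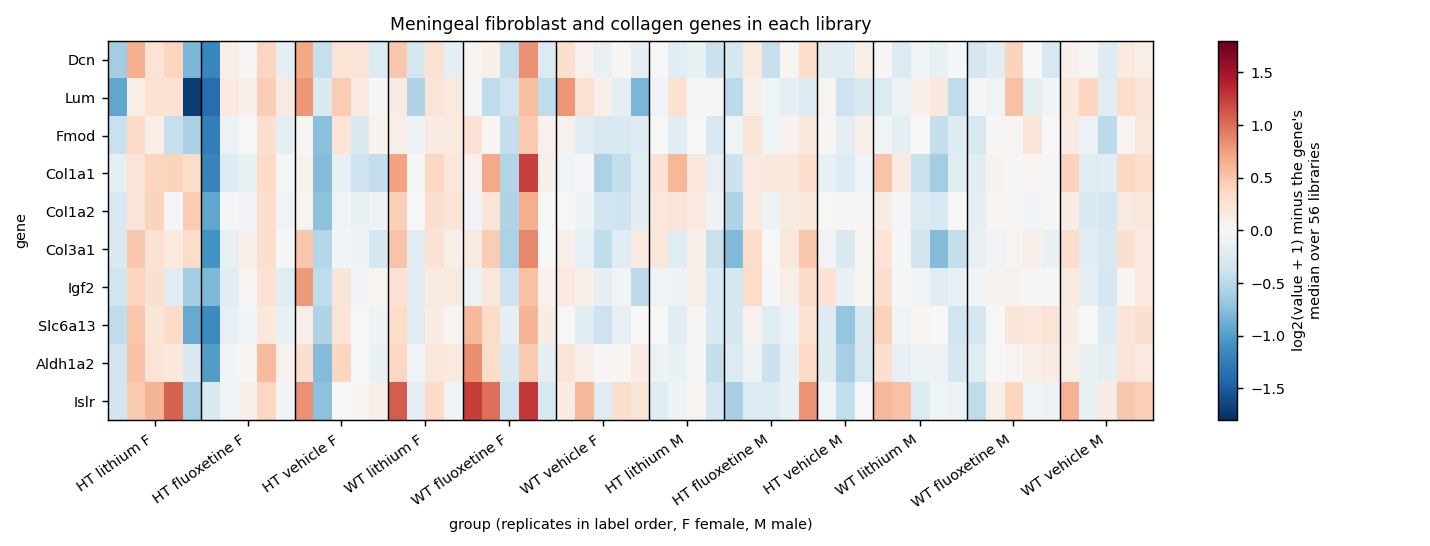
Each gene (vertical axis) in each of the 56 libraries (horizontal axis, by group), as log2(value + 1) minus the gene's median over all libraries. Whole columns are red or blue, as in HT fluoxetine female 1, the first of its group, where all 10 genes are below their medians, and WT fluoxetine female 4, where all 10 are above.

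With group means removed, every one of the 45 pairs of genes was positively correlated over the 56 libraries. Pearson's r ran from 0.450 to 0.902 with a median of 0.732, and Spearman's rho from 0.392 to 0.940. The largest Benjamini-Hochberg adjusted p over the 45 pairs was 0.0062 for r and 0.00688 for rho, by a permutation test of 100000 resamples within groups. When each pair was computed without the 2 libraries farthest from the median of its first gene, r ran from 0.425 to 0.899. The closest pairs were among the collagens and between Slc6a13 and Aldh1a2. Col1a1 went with its partner chain Col1a2 at r = 0.902 (rho = 0.850) and with Col3a1 at r = 0.897 (rho = 0.813). The transporter gene Slc6a13 went with the retinoic acid enzyme gene Aldh1a2 at r = 0.897 (rho = 0.940). The neighbouring proteoglycan genes Dcn and Lum had r = 0.804 (rho = 0.691). Lum was the least tied to the collagens, with r = 0.450 to Col3a1 (rho = 0.392), 0.467 to Col1a2 (rho = 0.409) and 0.484 to Col1a1 (rho = 0.445). All pairs share the libraries and their size factors, and pairs of other genes were not put to this test. How many of those would pass is therefore not known. Since the genes move together, a sign that they share in a comparison is not a set of separate results.

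Outside the 10, the genes whose within-group pattern was most like their mean were led by Slc13a4, a sulfate transporter gene, with r = 0.944 over 56 libraries (rho = 0.900). Next came Serping1, the complement C1 inhibitor gene, at r = 0.933 (rho = 0.915) and Aebp1, a gene for a collagen-binding matrix protein, at r = 0.927 (rho = 0.873). The other 7 of the closest 10 were Bmp6, Colec12, Ptgds, Ogn, Serpinf1, Efemp1 and Myof, with r of 0.853 to 0.885. Ptgds, the prostaglandin D synthase gene, was the most abundant of them, at a median of 18861 normalised counts and a range of 8163 to 30453. Slc13a4 ranged from 176 to 644 around a median of 417. These 10 were picked for their likeness, so their r values describe the choice.

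Lists of related genes differed in how closely their mean followed that of the 10 genes, again with group means removed and n = 56. Other meningeal fibroblast genes (40 in the table) had r = 0.944 (rho = 0.947), and border macrophage markers had r = 0.855 (rho = 0.841). Mural cell markers had r = 0.731 (rho = 0.747), olfactory bulb markers r = 0.590 (rho = 0.643), endothelial markers r = 0.437 (rho = 0.436) and choroid plexus markers r = 0.396 (rho = 0.572). Blood markers had r = -0.09 (rho = -0.17), and cortical neuron markers went the other way, with r = -0.63 (rho = -0.66). Of the lists of genes that work with the 10, the 12 transporter genes had r = 0.894 (rho = 0.898) and the 30 collagen processing genes r = 0.859 (rho = 0.835). So the libraries rich in the 10 genes tended to be rich in other meningeal, border macrophage and olfactory bulb genes and poor in cortical neuron genes. This did not hold in each library: HT lithium female 2 had all 10 genes above their medians, with cortical neuron markers at -0.05 from the median. WT fluoxetine female 4, the library richest in the 10 genes, was also the lowest in cortical neuron markers, with a sum of 35033 against a median of 62881. It was the highest in olfactory bulb markers, at 14785 against a median of 1618, and in bone markers, at 751 against 224. HT fluoxetine female 1, the poorest, was the lowest in border macrophage markers. The part of dissection in these levels was not tested.

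**Figure D3:**
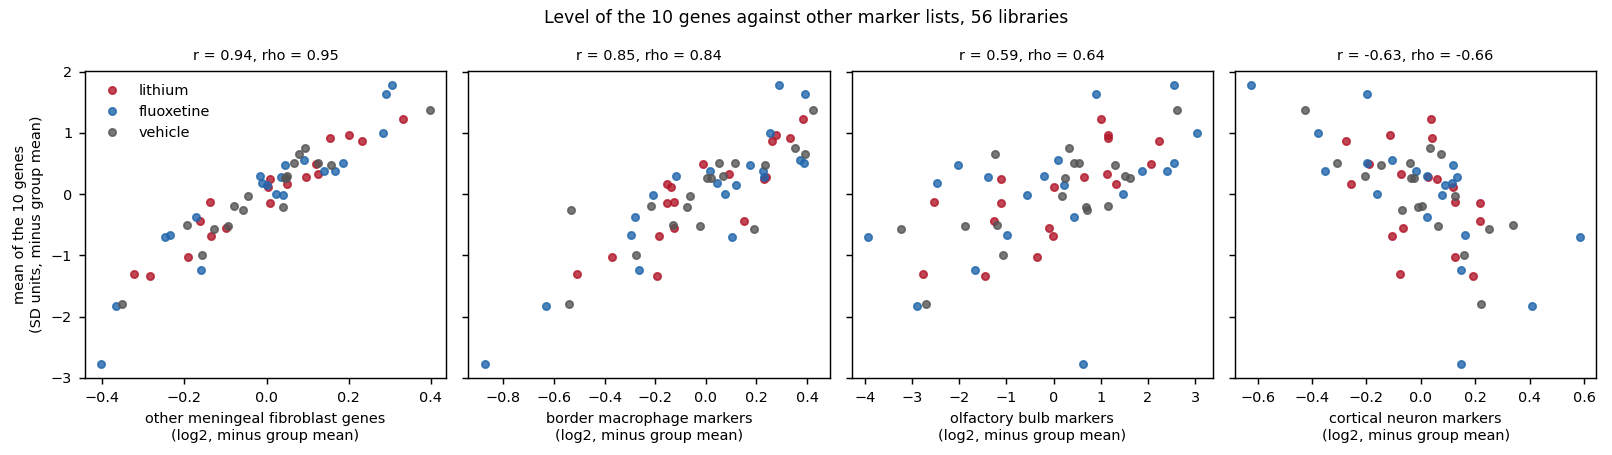
Mean level of the 10 genes (vertical axis, SD units with group means removed) against the mean log2 level of 4 marker lists (horizontal axes, group means removed) in 56 libraries, coloured by treatment. The points lie along a rising line for other meningeal fibroblast genes (r = 0.94) and a falling one for cortical neuron markers (r = -0.63).

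Islr had the highest r of the 10 with 2 marker lists of neighbouring tissue. It followed the olfactory bulb markers at r = 0.893 (rho = 0.904) and the bone markers Sp7, Ibsp and Dmp1 at r = 0.794 (rho = 0.796), where the other 9 genes had r of 0.322 to 0.540 and 0.212 to 0.495. Among the bone markers Ibsp was low, at 0.888 to 26.2 normalised counts. Dmp1 ran from 75.2 to 200 and Sp7 from 5.93 to 607. Both lists had their highest sum in WT fluoxetine female 4, and whether they stand for separate tissues was not tested. In WT fluoxetine females Islr had 1513, 1259.9, 492, 1535 and 522 normalised counts, against 699, 949, 546, 793 and 741 in WT vehicle females. Fluoxetine replicates 1, 2 and 4 were above every control, and replicates 3 and 5 below every control. That group mean, 1064 ± 520.1 (SD, n = 5), was the highest of the 12, and the lowest was 568 ± 89.4 (n = 3) in HT vehicle males.

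For lithium against vehicle in HT mice, with the sexes averaged, the type I collagen genes had the largest positive differences and none of the 10 passed the test. Col1a1 had 508, 672, 751, 756 and 721 normalised counts in HT lithium females, against 599, 334, 522, 443 and 424 in HT vehicle females. In males it had 684, 872, 656 and 518 normalised counts under lithium, against 519.7, 486 and 553 under vehicle. The lithium values were above all vehicle values in 4 of 5 females and 3 of 4 males, and the lowest lithium library of each sex lay among the controls. The means were 682 ± 103 against 465 ± 101 in females and 683 ± 145 against 519.5 ± 33.0 in males (SD). The log2 fold change was 0.47 ± 0.18 (SE), with an adjusted p of 0.0837 (limma, Benjamini-Hochberg over 18026 genes), and 2 SE either side spanned 0.11 to 0.82.

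The partner chain gene Col1a2 had a log2 fold change of 0.23 ± 0.13 (limma, adjusted p = 0.294) and Col3a1 one of 0.16 ± 0.17 (adjusted p = 0.652). Lum was at -0.19 ± 0.22, Igf2 at -0.17 ± 0.14, Dcn at -0.11 ± 0.18 and Fmod at -0.07 ± 0.14, while Aldh1a2, Slc6a13 and Islr were between 0.11 and 0.16. The median of the 10 was 0.12, against 0.00 over all genes. By limma 0 of the 10 were called, where 9.77% of all genes were (1761 of 18026), and 1 of the 10, Col1a1, had an unadjusted p below 0.05. edgeR called 0 of the 10 and DESeq2 called Col1a1 (log2 fold change 0.47, adjusted p = 0.0450), with 14% of its genes called.

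The call for Col1a1 turned on the settings. It passed when only the compared groups were fitted (0.47, adjusted p = 0.0240, with 7.69% of all genes called) and when libraries were weighted by quality (0.52, adjusted p = 0.00700, with 19.2% called). It also passed with choroid plexus markers (0.59, adjusted p = 0.0245, with 10% called) or olfactory bulb markers (0.51, adjusted p = 0.0155, with 15.8% called) as a covariate. It did not pass with endothelial and mural markers as a covariate (0.26, adjusted p = 0.321) or after a correction of each library for GC content and transcript length (0.31, adjusted p = 0.370). Col1a1 had the highest GC content of the 10, 58.9% of its longest coding transcript. Without any 1 library the adjusted p stayed between 0.0555 and 0.180, so the single-library omissions made no call.

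Igf2, Dcn, Lum and Fmod had negative values in HT mice beside the positive one of Col1a1. Igf2 had 2308, 3885, 3616, 2554 and 1949.6 normalised counts in HT lithium females, against 5032, 2155, 3464, 2867 and 3068 in HT vehicle females. In HT males Igf2 had 2834, 2779, 3204 and 2459 under lithium, against 3547, 2713 and 3049 under vehicle. The groups overlapped in both sexes, and the highest value belonged to HT vehicle female 1, the library rich in choroid plexus markers. Without that library the log2 fold change of Igf2 was -0.09. Igf2 is also made in the choroid plexus. All 10 genes were above their medians in HT vehicle female 1, from 0.02 for Fmod to 0.82 for Islr on the log2 scale, with Igf2 at 0.76. With choroid plexus markers as a covariate Igf2 was not called. Over 17 alternative settings its log2 fold change under lithium in HT mice ran from -0.41 to -0.000568. The part of choroid plexus tissue in the Igf2 values was not tested beyond this.

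A pair of alternatives chosen after the data were seen used the level of other genes of the same kind as a covariate. These covariates are not independent of the comparison: the other meningeal list had a median log2 fold change of 0.09 under lithium in HT mice with 2 genes called, and the non-collagen genes include those set against Col1a1. With the mean level of the 7 non-collagen genes as a covariate, Col1a1 had a log2 fold change of 0.49 ± 0.12 under lithium in HT mice (limma, adjusted p = 0.00480), Col1a2 one of 0.24 ± 0.09 (adjusted p = 0.0747) and Col3a1 was not called, where 12.5% of all genes were. With the mean of other meningeal fibroblast genes as the covariate, Igf2 fell by 0.31 ± 0.07 (adjusted p = 0.00246) and Dcn fell by 0.30 ± 0.09 (adjusted p = 0.0162), where 15.3% of all genes were called, and Col1a1 was at 0.31 ± 0.12 (adjusted p = 0.0623). When both libraries that stood apart were also left out, Igf2 was at -0.26 (adjusted p = 0.0266), Dcn at -0.27 (adjusted p = 0.0688) and Col1a1 at 0.18 (adjusted p = 0.369), with 8.82% of all genes called.

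**Figure D4:**
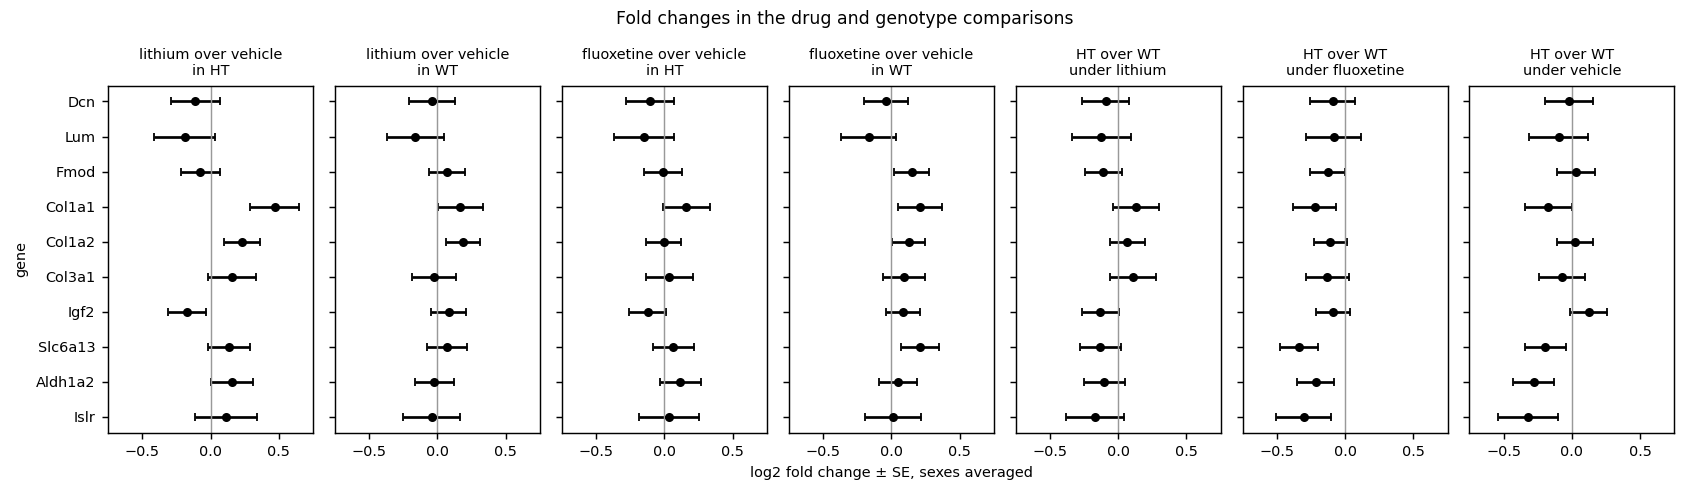
Log2 fold change of each gene (points) with its SE (bars) in 7 comparisons with the sexes averaged, from the fit over 12 groups. Col1a1 under lithium in HT lies farthest to the right at 0.47, and all 10 genes lie left of 0 for HT over WT under fluoxetine.

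In WT mice lithium gave smaller differences from vehicle, between -0.16 ± 0.21 for Lum and 0.19 ± 0.12 for Col1a2. Of the 10 genes, 0 were called by limma, edgeR or DESeq2 and 0 had an unadjusted p below 0.05, where limma called 11.7% of all genes. Col1a1 was at 0.17 ± 0.16 (adjusted p = 0.576). Its lithium difference was 0.30 ± 0.24 larger in HT than in WT mice, which did not pass the test of the interaction (limma, adjusted p = 0.754), where 0.0166% of all genes were called. For Igf2 the interaction was -0.25 ± 0.19 (adjusted p = 0.728), and for the other 8 genes between -0.14 and 0.18.

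The WT averages covered unlike values in the sexes for the collagens. Col1a2 had 1512, 1130.0, 1371 and 1323 normalised counts in WT lithium females, against 1122, 1053, 877, 868 and 984 in WT vehicle females. All 4 lithium values were above all 5 vehicle values. That pair of groups did not overlap for 1 of the 10 genes, Col1a2, and for 9.71% of all genes, with both directions counted. In males Col1a2 had 1231, 1103, 957, 928 and 1129 under lithium, against 1233, 939, 902, 1264 and 1295 under vehicle, and the groups overlapped. Col1a1 had 952, 559, 746 and 658 in WT lithium females, against 547, 560.2, 387, 424 and 492 in WT vehicle females. In males it had 816, 640.3, 435, 369.6 and 495 under lithium, against 763, 493, 499, 739.6 and 711 under vehicle. Thus 3 of 4 female lithium libraries were above all female controls, while in males the means went the other way, 551 ± 179 against 641 ± 134.

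The difference of the lithium effect between the sexes, males minus females, was -0.83 ± 0.33 for Col1a1 in WT mice (limma, adjusted p = 0.428). It was -0.51 ± 0.25 for Col1a2 (adjusted p = 0.563) and -0.60 ± 0.32 for Col3a1 (adjusted p = 0.624). All 10 genes had a negative value, with a median of -0.29 against -0.01 over all genes. They were correlated within groups, so their signs are not separate results. By limma 0 of the 10 and 0% of all genes (0 of 18026, 1556 at an unadjusted p below 0.05) were called. DESeq2 called 37 genes there and edgeR 0, none of them among the 10. In HT mice the same difference ran from -0.28 ± 0.35 for Col3a1 to 0.86 ± 0.45 for Lum, with 0 of the 10 called and 0.172% of all genes. Lum had 22.0 normalised counts in HT lithium female 5, and without that library its value was 0.53. Without both libraries that stood apart, HT vehicle female 1 being the other, it was 0.39 ± 0.41.

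HT lithium female 5 split the 10 genes. Col1a2 was 0.46, Col1a1 0.33 and Col3a1 0.33 above their medians on the log2 scale, while Lum was at -1.71, Slc6a13 at -0.90 and Dcn at -0.82 from theirs. The collagens and the other genes, correlated over the 56 libraries, were thus far apart in this animal. Some of them also parted in WT lithium male 4. There Col3a1 was at -0.78 and Col1a1 at -0.63, against 0.18 for Lum and 0.01 for Slc6a13, though Fmod was at -0.43. In HT lithium female 5 the slope of the level on the GC content of the transcript, over all genes, was 0.25 log2 units per 10 percentage points, the highest of the 56. Lum and Dcn have the lowest GC content of the 10, 41.9% and 42.8%, and the collagens lie between 52.5% and 58.9%. Igf2 and Islr, with a GC content of 55.8% and 56%, were at -0.61 and -0.59 from their medians. In HT fluoxetine female 1 the slope was -0.08 and all 10 genes were low. The part of GC content in these levels was not tested gene by gene.

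**Figure D5:**
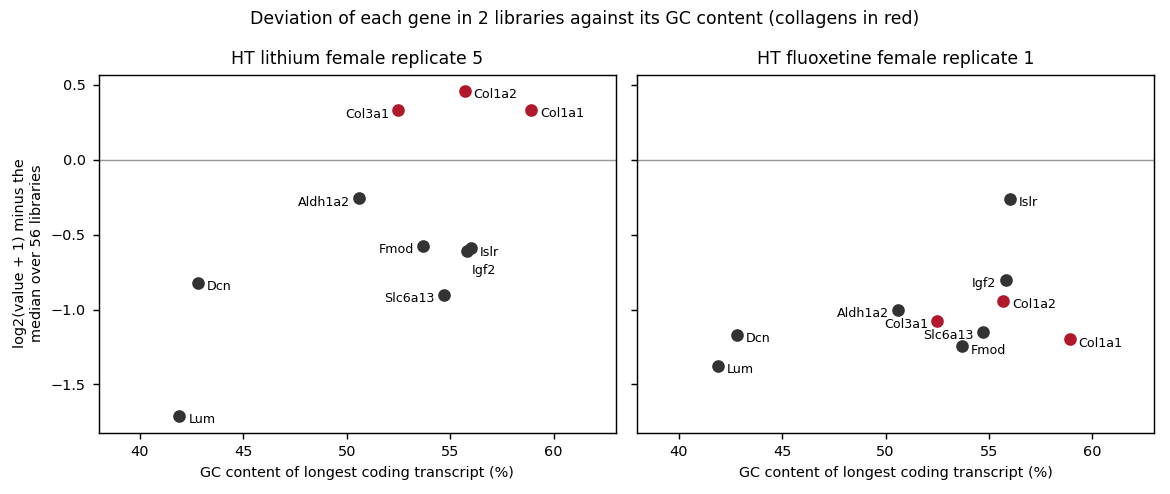
Deviation of each gene from its median (vertical axis, log2 scale) against the GC content of its longest coding transcript (horizontal axis, percent) in HT lithium female 5 and HT fluoxetine female 1. The 3 collagens (red) are above 0 on the left and near -1 on the right, and the other 7 genes are below 0 in both.

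Fluoxetine against vehicle left the 10 genes within their spread. In HT mice the log2 fold changes ran from -0.15 ± 0.22 for Lum to 0.16 ± 0.17 for Col1a1. Of the 10 genes and of all genes, limma called 0 (0%, with 1307 genes at an unadjusted p below 0.05), and the smallest adjusted p among the 10 was 0.940, while edgeR called 0 genes and DESeq2 16 over all genes. In WT mice they ran from -0.16 ± 0.20 for Lum to 0.21 ± 0.16 for Col1a1 and 0.21 ± 0.14 for Slc6a13 (limma, adjusted p = 0.428), with 0 of the 10 called and 5.18% of all genes. The interaction of fluoxetine with genotype was between -0.21 and 0.06 over the 10 genes. None of them was called there, nor any gene by limma (0%, 634 at an unadjusted p below 0.05), edgeR or DESeq2.

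The fluoxetine effect in WT mice had its largest gap between the sexes in Col1a1. It had 497, 599, 579, 585 and 567 normalised counts in WT fluoxetine males, and 606, 924, 399, 1351 and 611 in WT fluoxetine females. The vehicle values given above were 493 to 763 in males and 387 to 560.2 in females. Of the 5 fluoxetine females 4 were above all female controls, and 1 was below all but the lowest control. The difference of the effect, males minus females, was -0.74 ± 0.32 (limma, adjusted p = 0.137), and that of Islr was -0.70 ± 0.40 (adjusted p = 0.279). Neither limma nor edgeR called any of the 10, where limma called 7.74% of all genes. DESeq2 called Col1a1 (-0.88, adjusted p = 0.0405, with 13.6% of its genes called), and so did limma without WT fluoxetine female 3 (-0.95, adjusted p = 0.0363, with 12.2% called). With libraries weighted by quality limma called Col1a1 (-0.98, adjusted p = 0.00907) and Islr (-1.01, adjusted p = 0.0160), where 25.7% of all genes were called. Without WT fluoxetine female 4, the library richest in the 10 genes, the value of Col1a1 was -0.51 (limma, adjusted p = 0.339). Over the alternative settings the value of Col1a1 ran from -0.98 to -0.39 and that of Islr from -1.01 to -0.27. In HT mice the difference was positive for 9 of the 10 correlated genes, with a median of 0.26 against -0.0021 over all genes. It reached 0.54 ± 0.30 for Slc6a13 (limma, adjusted p = 0.806), with 0 of the 10 called and 0.0277% of all genes.

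Between the genotypes limma called none of the genes. For HT against WT under vehicle the log2 fold changes ran from -0.32 ± 0.22 for Islr to 0.12 ± 0.14 for Igf2. Limma called 0 of the 10 and 0% of all genes (1119 at an unadjusted p below 0.05), edgeR 1 gene and DESeq2 5, none of them among the 10. Aldh1a2, the retinoic acid enzyme gene, was at -0.28 ± 0.15 (limma, adjusted p = 0.781). In vehicle males it had 217, 169 and 209 normalised counts in HT, against 273, 234, 226, 298 and 287 in WT. The groups did not overlap, as for 9.53% of all genes in that pair. In vehicle females it had 312, 147, 335, 257 and 233 in HT, against 299, 271, 259, 262 and 283 in WT, where HT held both the highest and the lowest values. The difference of the genotype effect between the sexes ran from -0.57 for Slc6a13 and Lum to 0.02 for Col1a2, with 0 of the 10 called and 0% of all genes by limma (1574 at an unadjusted p below 0.05), 0 by edgeR and 24 by DESeq2.

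Under fluoxetine all 10 genes were lower in HT than in WT, with a median log2 fold change of -0.13 against 0.00 over all genes, and limma called 0 of the 10 and 0% of all genes (2023 at an unadjusted p below 0.05), edgeR 1 and DESeq2 10, none of them among the 10. Slc6a13 was the farthest from 0, at -0.34 ± 0.14 (limma, adjusted p = 0.378). It had 144, 288, 308, 364 and 292 normalised counts in HT fluoxetine females, against 478, 401, 284, 488 and 350.4 in WT fluoxetine females. The males had 258, 336, 275, 296 and 385 in HT, against 256, 317, 371, 367 and 378 in WT. The groups overlapped in both sexes, and HT fluoxetine female 1 and WT fluoxetine female 4 lay at the low and the high end. Without HT fluoxetine female 1 the difference was -0.23. Under lithium the genotype differences ran from -0.17 ± 0.21 for Islr to 0.13 ± 0.17 for Col1a1, and limma called 0 of the 10 and 0% of all genes (1771 at an unadjusted p below 0.05), edgeR 0 and DESeq2 15, none among the 10.

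Averaged over the 6 combinations of genotype and drug, the collagens had log2 fold changes, male over female, of 0.02 ± 0.10 for Col1a1, 0.02 ± 0.07 for Col1a2 and -0.10 ± 0.10 for Col3a1, so that 2 SE either side of Col1a1 spanned -0.17 to 0.22. Aldh1a2 was at -0.19 ± 0.08 (limma, adjusted p = 0.334) and Islr at -0.23 ± 0.12 (adjusted p = 0.419). Of the 10 genes 0 were called by limma, edgeR and DESeq2, where limma called 0.283% of all genes. Over all 15 comparisons limma called 0 of 150 tests of the 10 genes, and 6 had an unadjusted p below 0.05.

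Genes that work with the 10, and markers of neighbouring cell types, made up lists of 197 tested genes, of which lithium gave 18 calls (9.14%) in HT mice, against 9.77% of all genes, and 20 calls (10.2%) in WT mice, against 11.7% of all genes. These shares are no higher than those of all genes, and the counts per list are descriptions. Among the 27 genes for other collagens and matrix partners, 3 rose and 0 fell in HT lithium mice: Col16a1 (0.32 ± 0.08), Col11a1 (0.42 ± 0.13) and Fn1, the fibronectin gene (0.28 ± 0.09, adjusted p = 0.0476 by limma). In WT mice 1 rose, Fn1 (0.30 ± 0.09, adjusted p = 0.0171 by limma), and 0 fell. Their median log2 fold change was 0.15 in HT and 0.05 in WT mice, against 0.00 over all genes in both. Of 30 tested genes for enzymes and chaperones that modify, secrete or cleave collagen, 3 rose in HT and 4 in WT lithium mice, and 0 and 1 fell. P4ha1 and P4ha2, subunits of prolyl 4-hydroxylase, which hydroxylates collagen proline, rose by 0.30 ± 0.08 and 0.22 ± 0.07 in HT and by 0.28 ± 0.08 and 0.41 ± 0.07 in WT mice. Plod3, a collagen lysyl hydroxylase and glycosyltransferase gene, rose by 0.20 ± 0.06 in HT and 0.19 ± 0.06 in WT mice. The other two called in WT mice were the collagen secretion gene Mia3, which rose by 0.13 ± 0.04, and the collagen galactosyltransferase gene Colgalt1, which fell by 0.12 ± 0.04. Prolyl and lysyl hydroxylases are not particular to fibroblasts, and the cell type in which they rose was not measured.

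Of 15 tested genes of insulin-like growth factor signalling, 3 rose in HT and 4 in WT lithium mice and 0 fell, where 9.77% and 11.7% of all genes were called. Igf1r, the type 1 receptor gene, rose by 0.24 ± 0.05 in HT and 0.29 ± 0.04 in WT mice. Igf2r, whose product clears insulin-like growth factor 2, rose by 0.24 ± 0.06 in HT and 0.29 ± 0.05 in WT mice. Irs2, a docking protein gene downstream of the receptors, rose by 0.42 ± 0.09 in HT and 0.52 ± 0.08 in WT mice, while the ligand gene Igf2 had no call. The fourth in WT mice was the insulin receptor gene Insr (0.16 ± 0.04). Of 14 retinoic acid genes only the receptor gene Rara was called, at 0.51 ± 0.11 in HT and 0.52 ± 0.11 in WT lithium mice, and the enzyme gene Aldh1a2 was at 0.16 and -0.02. Among 10 other small leucine-rich proteoglycan genes Optc (opticin) fell by 0.74 ± 0.25 in HT and by 0.75 ± 0.23 in WT mice and 0 rose. Of 12 transporter genes 1 rose in each genotype, the creatine transporter gene Slc6a8 (0.14 ± 0.05 and 0.17 ± 0.04). Under fluoxetine in WT mice Col16a1, P4ha2, Rara, Igf1r, Igf2r and Irs2 of these lists rose by 0.19 to 0.42 and Optc fell by 0.78, which made 7 of 197 listed genes (3.55%), against 5.18% of all genes. In HT mice 0 of the 197 listed genes were called by limma under fluoxetine. The lithium and the fluoxetine comparison of a genotype share its vehicle libraries.

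Of 40 other meningeal fibroblast genes 2 rose in HT lithium mice, Lama1 (0.41 ± 0.10) and Cemip (0.32 ± 0.08), and 0 fell. In WT mice 3 rose, Gjb6 (0.43 ± 0.08), Lama1 (0.40 ± 0.09) and Cemip (0.31 ± 0.07), and 0 fell. These were 5% and 7.5% of the list, against 9.77% and 11.7% of all genes. The cell type in which Lama1, Cemip and Gjb6 rose was not measured. The median log2 fold change of the 40 was 0.09 in HT and 0.02 in WT mice. Among 6 endothelial markers 1 rose in HT mice, Flt1 (0.33 ± 0.08), and 2 fell in WT mice, Tek by 0.39 ± 0.09 and Cldn5 by 0.30 ± 0.09. Among 8 mural markers Myh11 rose in HT mice (0.54 ± 0.15) and Pdgfrb fell in WT mice by 0.24 ± 0.07. The medians of the endothelial and mural markers under lithium were 0.18 and 0.19 in HT mice and -0.04 and -0.08 in WT mice. With both lists as a covariate Igf2 was called in HT mice (-0.41, adjusted p = 0.00588), where 12% of all genes were called. Of 6 border macrophage markers 0 were called in HT mice and Cd163 rose in WT mice (0.65 ± 0.20). Of 6 cortical neuron markers Cux2 rose in HT mice (0.37 ± 0.10) and 0 in WT mice, and of 3 bone markers Dmp1 rose in HT mice (0.39 ± 0.12) and 0 in WT mice. Of 5 blood, 5 olfactory bulb and 10 choroid plexus markers 0 were called by limma in either genotype, with Ttr, the choroid plexus transthyretin gene, at -2.39 ± 0.95 in HT mice (adjusted p = 0.106). Ttr ran from 1.02 to 50312 normalised counts around a median of 3.95 over all libraries. HT vehicle female 1 held the highest sum of choroid plexus markers, 54413 against a median of 180.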

How the data were processed

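Polyadenylated RNA of the prefrontal cortex was sequenced from TruSeq Stranded mRNA libraries, per the labels' protocols. The submitters' processing notes name Salmon 0.11.2, R 3.6.0, DESeq2 1.19.11 and GRCm38. The authors deposited 1 table of normalised signal, counts divided by a size factor per library, without replicates pooled. Values of a column came in whole steps (100% within 1e-06), so that the reads behind them could be recovered. Of its 59 columns 3 matched no label and were not used, and 1 sample, a WT lithium female, had no column, which left 56 libraries. In 105 pairs of libraries of 1 group, chi-square over its degrees of freedom was 4.71 or more, so none were counted as repeats. Ensembl identifiers were matched to symbols for 18077 of 18088 genes, and coordinates, lengths and GC content came from GENCODE vM21.

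Values were tested as log2(value + 1), which understates changes of low genes, with limma-trend (limma 3.58.1, R 4.3.3) on all 12 groups in 1 fit with 44 residual degrees of freedom. Genes reaching 10 in 3 or more libraries entered the two-sided tests (18026 of them), and calls were made where the p adjusted over all of these by Benjamini-Hochberg was below 0.05. Fold changes are drug over vehicle, HT over WT and male over female, with the sexes averaged unless stated.

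The members and lists were chosen with earlier results of these data known. All 10 members are named; from each list up to 3 called genes by p, or up to 2 as values, with Mia3, Colgalt1 and Insr added after their values were seen; and the 10 other genes most like the members. Alternatives were TMM factors, no filter, a pseudocount of 5, no trend, a fit of the compared groups alone, a block for replicate number, array weights, edgeR 4.0.16 and DESeq2 1.42.0 on the recovered reads, marker lists as covariates, GC and length splines (4 degrees of freedom), and leaving out libraries over 5 median absolute deviations from the median or each library in turn. The fits were tested on simulated data. A gene of a marker list is not reported here, and that list was computed without it.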

Additional observations from a re-analysis of the deposited data

Results flagged for a closer look

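Within groups of 4 or 5 libraries, 110 sets of values of the 10 genes were examined, and in 8 (7.27%) the highest or lowest library stood apart from the others by Dixon's test on the log2 scale, where chance alone gives about 5%. The 10 genes were correlated over the same libraries, so these sets are not independent. The count is a description, without the share over all genes beside it. HT fluoxetine female 1 was apart for Lum at 28.0 normalised counts, against 79.4 to 101 in the other 4, and for Slc6a13 at 144, against 288 to 364. Lum was also apart in WT fluoxetine male 3, at 108 against 65.5 to 72.9, and in WT lithium female 2, at 50.9 against 82.7 to 87.9. Col1a1 was low in HT fluoxetine male 1, at 438 against 639 to 718, and in WT fluoxetine male 1, at 497 against 567 to 599. Col1a2 was low in HT vehicle female 2, at 674 against 1025 to 1169. Fmod was high in WT vehicle female 1, at 799 against 618 to 657. HT fluoxetine female 1, HT fluoxetine male 1, WT fluoxetine male 1 and HT vehicle female 2 had all 10 genes below their medians, and WT fluoxetine male 3 had all 10 above them.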

How the results depend on the processing

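In 13 of the 15 comparisons the count of the 10 genes called was 0 under all 18 alternative settings and in all 56 fits that left out 1 library. For lithium in HT mice, 1 was called with the compared groups only, array weights, DESeq2, and the choroid plexus or olfactory covariate (Col1a1 higher), with the endothelial and mural covariate (Igf2 lower), and, chosen after seeing the data, with the other meningeal covariate without the libraries apart (Igf2 lower) and the non-collagen covariate (Col1a1 higher, 3 genes tested). With the other meningeal covariate alone, also chosen after seeing the data, 2 were called (Dcn and Igf2 lower). For the sex difference of fluoxetine in WT mice, 2 were called with array weights (Col1a1 and Islr lower), 1 with DESeq2 (Col1a1 lower), and 0 to 1 without single libraries. Under lithium in HT mice the sign of Dcn turned with array weights (0.023), the choroid plexus covariate (0.042), the GC and length correction (0.0022) and without the libraries apart (0.062), and that of Col1a2 with the other meningeal covariate without the libraries apart (-0.018). The cause was not tested.

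With the replicate number as a block 0 of the 10 genes were called in any comparison, and Col1a1 under lithium in HT mice was at 0.45 (limma, adjusted p = 0.114). The numbers did not pair libraries: over 289 pairs with the same number the mean correlation was 0.00 (range -0.44 to 0.45; 67 over 0.1), and 10 of 56 libraries correlated best with their own number. Depth limits Lum most, with as few as 23 reads in a library.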
